A study of Mus musculus with 6 samples.

Results

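Muc2, Vldlr and Smtnl2 are 3 genes of 56941 in a table of RNA-seq read counts from activated mouse CD8+ T cells. They were chosen by their normalised read counts with sphingosine-1-phosphate (S1P), a signalling lipid of blood and lymph, against vehicle, which differed strongly, and because they are known mainly from other tissues. The contrast between the treatments is therefore given for them as a description without a test. CD8+ T cells from B6 mouse spleens were stimulated for 3 days on plates coated with antibodies to CD3 and CD28, with recombinant IL-2. The labels name purified naive CD8+ T cells. The published culture method starts from purified naive T cells or from whole splenocytes, without saying which served for RNA-seq. After 24 h the cultures received S1P at 5 µM (3 samples) or the vehicle control (3 samples), and nothing else in the labels separates the groups. The labels call the samples biological replicates without saying whether separate mice or separate cultures were used. All p-values below therefore measure the spread between these samples, which may be that between cultures. RNA of whole cultures was measured, so more cells of a type and more RNA per cell cannot be told apart.

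Muc2 encodes the secreted gel-forming mucin that goblet cells of the intestine release to build the mucus layer, a very large protein that is dimerised in the endoplasmic reticulum, heavily O-glycosylated in the Golgi and packed into granules. Vldlr encodes the very low density lipoprotein receptor, a member of a family of endocytic receptors that binds triglyceride-rich lipoproteins carrying apolipoprotein E, takes up protease-inhibitor complexes and, in neurons, serves with Lrp8 as a receptor for reelin. It is abundant in heart, skeletal muscle, fat and brain, and is a known target of hypoxia-inducible factors (HIF) and of the PERK-ATF4 arm of the unfolded protein response in other cells. Smtnl2 encodes smoothelin-like 2, a protein with a calponin homology domain that belongs to the family of smoothelin, a cytoskeletal protein of smooth muscle, and that is a substrate of MAP kinases. None of the 3 is used as a marker of T cells.

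Positions are those of GENCODE on GRCm39. Muc2 (ENSMUSG00000025515) lies on the plus strand at chr7:141276583-141308430, with 13916 bases of exon. Vldlr (ENSMUSG00000024924) lies on the plus strand at chr19:27193862-27231631, with 10167 bases of exon over 23 annotated transcripts. Smtnl2 (ENSMUSG00000045667) lies on the minus strand at chr11:72279984-72302572, with 4165 bases of exon over 12 annotated transcripts. The genes thus sit on 3 chromosomes, and no exon base of Muc2 or Smtnl2 is shared with another gene. Of Vldlr, 131 exon bases (1.29%) overlap Gm50114 on the opposite strand. Little of their sequence recurs elsewhere, and the share of 31-base words found in another annotated gene was 0% for Muc2, 1.01% for Vldlr and 2.85% for Smtnl2. Muc2 repeats itself, with 24.9% of its 31-base words occurring more than once within the transcript, and how the counting treated reads that fit several places within 1 gene is not given in the sources used here.

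The sequence before the start of each gene is shown because the 3 transcripts were all higher with S1P and because HIF, ATF4 and serum response factor, the regulator of smooth muscle genes, read short motifs in promoters. Sequences are from GRCm39, 5′ to 3′ on the strand of the gene, and end just before the start of the canonical transcript for Muc2 (chr7:141276333-141276582). For Smtnl2 the stretch runs from 250 to 34 bases before the start (chr11:72302573-72302789, minus strand), where an exon of another Smtnl2 transcript begins. For Vldlr the 30 bases around the only motif match are shown (chr19:27194209-27194238), with the match in capitals.
Muc2 promoter: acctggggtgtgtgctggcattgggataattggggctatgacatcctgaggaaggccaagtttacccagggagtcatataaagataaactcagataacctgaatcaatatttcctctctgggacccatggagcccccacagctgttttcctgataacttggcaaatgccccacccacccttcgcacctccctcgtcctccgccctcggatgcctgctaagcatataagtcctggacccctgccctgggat
Vldlr site: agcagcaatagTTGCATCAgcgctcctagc
Smtnl2 promoter: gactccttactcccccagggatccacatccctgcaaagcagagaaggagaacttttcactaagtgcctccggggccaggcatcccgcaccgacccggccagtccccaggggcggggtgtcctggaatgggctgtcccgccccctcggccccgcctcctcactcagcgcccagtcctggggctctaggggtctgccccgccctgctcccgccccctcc
The capitals mark TTGCATCA, which is the reverse complement of TGATGNAA, the C/EBP-ATF response element bound by ATF4. It lies 192 to 185 bases before the canonical Vldlr start, in a stretch that is also exon of Vldlr transcripts that start further upstream.

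GC content over 250 bases was 53.2% for Muc2, 66% for Vldlr and 72% for Smtnl2, and the median over 21757 promoters of protein-coding genes was 53.2%. The same windows held 4, 16 and 17 CpG dinucleotides against a median of 8, so that Vldlr and Smtnl2 were alike in both measures and Muc2 was not. The motifs searched on both strands in these 250 bases were ACGTG and GCGTG (the HIF response element), TGATGNAA and the CArG box of serum response factor. TGATGNAA was present in 3.39% of all promoters, in 2.05% of those of tested genes and, among these 3, only in Vldlr. ACGTG occurred in 17%, GCGTG in 31.2% and the CArG box in 1.40% of all promoters, and none of the 3 genes held any of them in this window. Over 1000 bases Muc2 had 3 matches to ACGTG, of which 2 are the strands of a single CACGTG, and Smtnl2 had 1 match to GCGTG, 260 to 256 bases before its start. Such matches are common, since 43.9% of promoters hold ACGTG and 54.8% hold GCGTG within 1000 bases.

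Total counts ranged from 12048880 to 17384084 reads per sample, and 13299 genes had enough reads to be tested. Over these, edgeR's quasi-likelihood test called 1687 genes (12.7%) higher and 1384 genes (10.4%) lower after S1P, where a call needs an adjusted p no larger than 0.05 and a log2 difference of 0.3 or more. The split depends on the scaling, with 1498 higher and 1511 lower when scaled by total count alone and 1838 and 1206 with upper-quartile factors. S1P replicate 2 stood apart from the other libraries, with 7.80% of its reads on mitochondrially encoded genes against 4.10% to 4.93% in the others, so the log2 fold changes of the 3 genes and the list counts that change are also given without it. Its counts differed from those of S1P replicate 1 by a chi-square of 31.3 per gene and from those of S1P replicate 3 by 18.4. S1P replicates 1 and 3 differed by 5.98, and the 3 pairs of vehicle samples gave 3.81 to 3.97.

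Muc2 went from 16 to 66 reads per library with vehicle to between 238 and 538 with S1P. Raw counts were 43, 66 and 16 in vehicle replicates 1 to 3 and 480, 538 and 238 in S1P replicates 1 to 3. Scaled to a common library size, the mean over the samples, with edgeR's TMM factors (the normalised read count), these were 36.5, 71.4 and 15.2 with vehicle and 398, 696 and 275 with S1P. The groups did not overlap, and the lowest S1P sample was 3.86 times the highest vehicle sample. Across the table, 23.0% of tested genes had groups that did not overlap with S1P higher. The mean went from 41.0 ± 28.4 to 456 ± 216 (SD, n = 3 each), and the fitted log2 fold change was 3.50 with a standard error of 0.41, an 11.3-fold difference. S1P replicate 2 was the highest sample, and without it the log2 fold change was 3.09. Without vehicle replicate 2 it was 4.09.

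Vldlr went from at most 83 reads per library with vehicle to at least 411 with S1P. Raw counts were 83, 81 and 23 with vehicle and 866, 411 and 420 with S1P. Normalised read counts were 70.5, 87.6 and 21.8 with vehicle and 718, 532 and 486 with S1P. The groups were wide apart and the S1P samples close together, with the lowest S1P sample at 5.55 times the highest vehicle sample and the highest S1P sample at 1.48 times the lowest. The mean went from 60.0 ± 34.1 to 579 ± 123 (SD, n = 3 each), with a log2 fold change of 3.29 and a standard error of 0.29, which is 9.78-fold. Without S1P replicate 2 the log2 fold change was 3.35.

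Smtnl2 had the fewest reads. Raw counts were 12, 30 and 9 with vehicle and 218, 96 and 100 with S1P, and normalised read counts were 10.2, 32.4 and 8.53 with vehicle and 181, 124 and 116 with S1P. Vehicle replicate 2 carried most of the reads of its group, yet the lowest S1P sample still stood at 3.57 times its level. The mean went from 17.1 ± 13.3 to 140 ± 35.4 (SD, n = 3 each), with a log2 fold change of 3.11 and a standard error of 0.36, or 8.64-fold. Without S1P replicate 2 the log2 fold change was 3.20, and without vehicle replicate 2 it was 3.89.

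**Figure D1:**
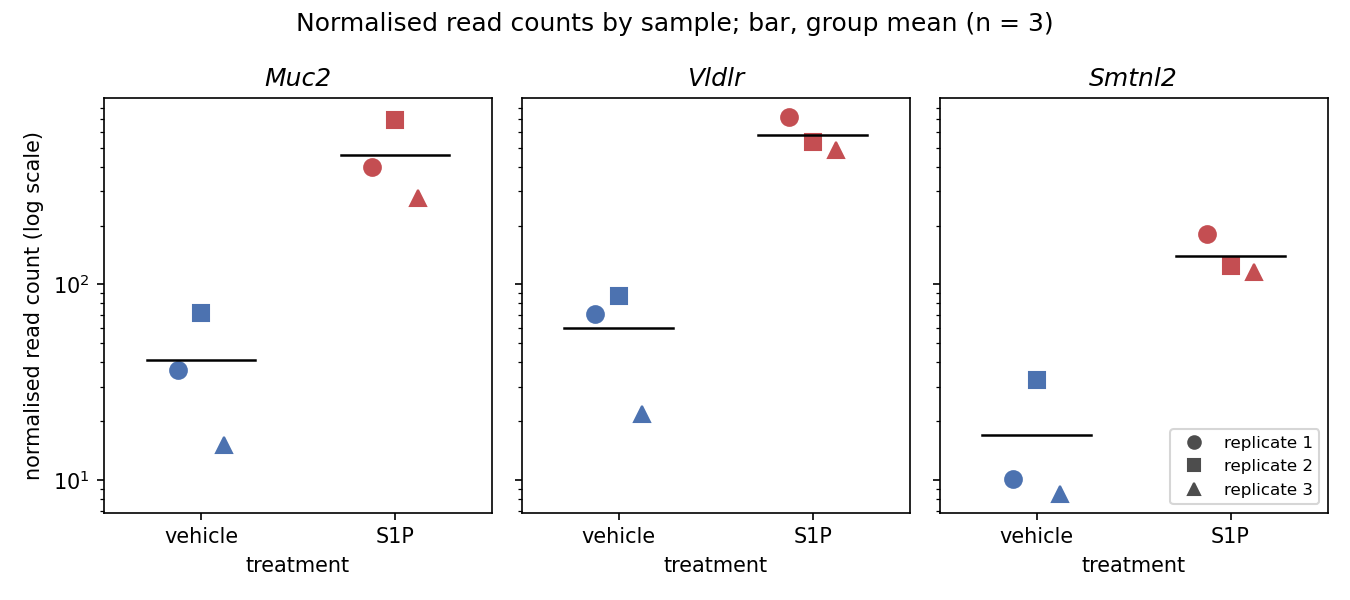
Normalised read counts of Muc2, Vldlr and Smtnl2 (log axis) in each of the 3 vehicle (blue) and 3 S1P (red) samples, with the replicate shown by the marker and the group mean by the bar. All S1P samples lie above all vehicle samples for each gene, and vehicle replicate 3 (triangle) is the lowest vehicle sample of every gene.

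Because the labels do not say that sample numbers pair the treatments, each S1P sample was set against each vehicle sample. Over these 9 comparisons the log2 difference of Muc2 ran from 1.95 to 5.52 with a median of 3.45. For Vldlr it ran from 2.47 to 5.04 with a median of 3.04, and for Smtnl2 from 1.84 to 4.41 with a median of 3.61. All 3 ranges share the stretch from 2.47 to 4.41, and the order of the 3 responses in size was not tested.

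Ranked by log2 fold change over all tested genes, Muc2 was 6th, Vldlr 9th and Smtnl2 14th. The genes directly above them were Grin1 (3.54), Ifi44 (3.30) and Itga7 (3.12), and those directly below were Il23a (3.47), Pygl (3.28) and Fzd7 (3.03). Grin1 (an NMDA receptor subunit) and Il23a (the p19 subunit of IL-23) had a mean of 1.29 and 1.6 normalised reads with vehicle. The 3 genes had more reads than that. Among the 11119 genes whose mean log2 CPM was 1 or more, 3, 5 and 8 genes had a larger log2 fold change than Muc2, Vldlr and Smtnl2.

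Levels per length place the 3 genes among the rest. In CPM per kilobase of exon, Muc2 went from 0.200 ± 0.138 to 2.23 ± 1.05 (SD, n = 3), Vldlr from 0.400 ± 0.228 to 3.86 ± 0.821 and Smtnl2 from 0.278 ± 0.217 to 2.28 ± 0.576. With vehicle this placed Muc2 at percentile 5.60, Smtnl2 at 8.48 and Vldlr at 12.2 of the tested genes. With S1P they stood at percentiles 37.4, 37.9 and 50.1. Among the tested genes the transcripts thus moved from the low end to near or below the median.

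The vehicle samples differed widely among themselves. The highest vehicle sample was 4.71 times the lowest for Muc2, 4.02 times for Vldlr and 3.8 times for Smtnl2. For Muc2 the exact 95% Poisson interval of the normalised read count was 55.2 to 90.8 in vehicle replicate 2 and 8.67 to 24.6 in vehicle replicate 3. The same intervals were 69.5 to 109 and 13.8 to 32.7 for Vldlr, and 21.9 to 46.3 and 3.90 to 16.2 for Smtnl2. These are the highest and lowest vehicle samples of each gene, and their intervals, which cover counting error only, do not overlap.

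The fitted biological coefficient of variation, the spread between replicates beyond counting, was 0.33 for Muc2, 0.25 for Vldlr and 0.24 for Smtnl2. Tested genes of like abundance had a median of 0.081, 0.077 and 0.11. The values of the 3 genes lay at percentiles 99.8, 98.3 and 98 of all tested genes.

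The order of the vehicle samples was the same for the 3 genes, with replicate 3 lowest, replicate 1 between and replicate 2 highest. Counting error leaves parts of this order unresolved, since the intervals of replicates 1 and 3 overlap for Smtnl2 (5.27 to 17.8 and 3.90 to 16.2) and those of replicates 1 and 2 for Vldlr (56.2 to 87.4 and 69.5 to 109). Relative to the mean log2 CPM of the vehicle group, Muc2 stood at 0.08, 1.01 and -1.09 in replicates 1 to 3. Vldlr stood at 0.43, 0.74 and -1.17, and Smtnl2 at -0.43, 1.07 and -0.64. Over all tested genes, 34.5% had replicate 3 lowest of the vehicle samples and 17.9% had this full order. It was shared by 25 of 29 tested genes of a list of HIF targets (86.2%), by 14 of 30 PERK-ATF4 targets (46.7%) and by 2 of the 10 other tested members of the lipoprotein receptor family analysed (20%). In 7 of these 10, vehicle replicate 3 was the lowest, as it was in 27 of the HIF targets and 19 of the PERK-ATF4 targets.

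The median deviation over the HIF list was 0.01, 0.21 and -0.22 in vehicle replicates 1 to 3, and a median over many genes is narrower than the values of single genes. For the PERK-ATF4 list the median was 0.01, 0.03 and -0.05, and for all tested genes it was within 0.01 of 0. Among the S1P samples, replicate 3 was the lowest for each of the 3 genes, at -0.62 for Muc2, -0.23 for Vldlr and -0.25 for Smtnl2. Counting error does not resolve replicate 3 from replicate 2 for Vldlr and Smtnl2. Their 95% Poisson intervals overlap for Vldlr (441 to 535 and 481 to 586) and for Smtnl2 (94.2 to 141 and 101 to 152). The top sample was not shared, and Muc2 was highest in replicate 2 (0.71 above its group mean), whereas Vldlr (0.33) and Smtnl2 (0.39) were highest in replicate 1.

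**Figure D2:**
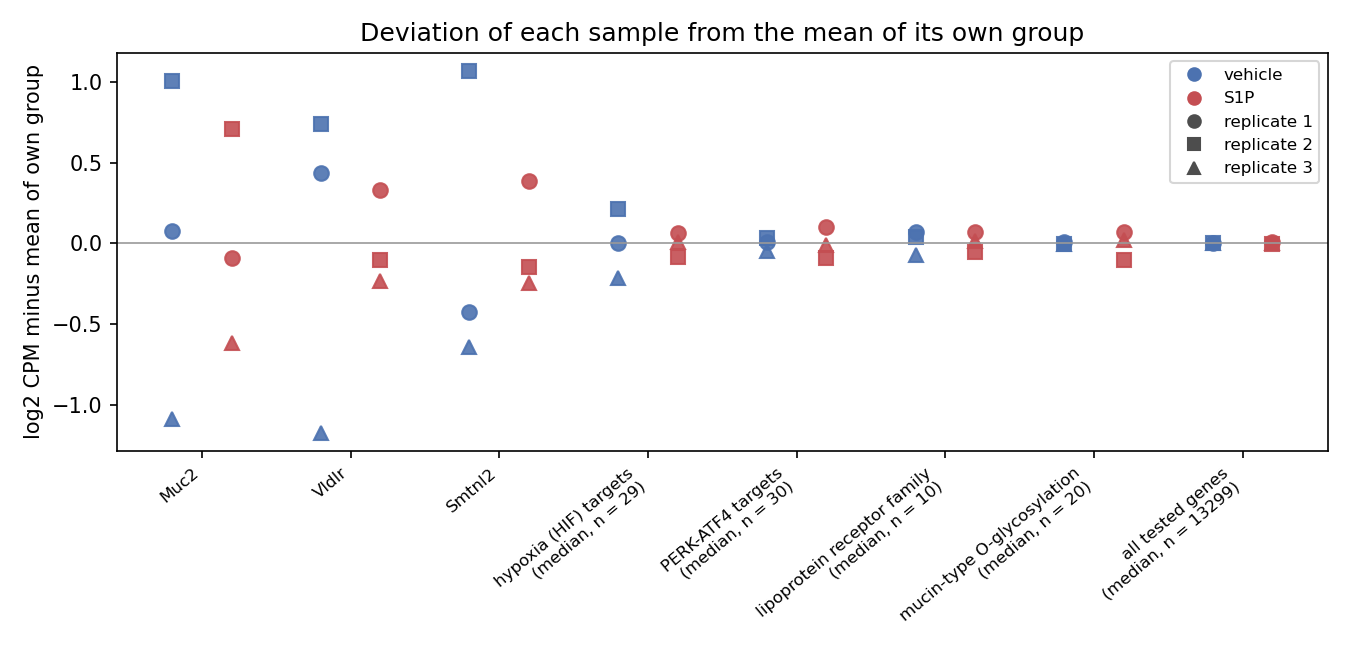
Log2 CPM of each sample minus the mean of its own group (y axis) for Muc2, Vldlr and Smtnl2, and the median of that deviation over gene lists and over all tested genes (x axis), with treatment by colour and replicate by marker. The 3 genes spread by 1 log2 unit and more around the vehicle mean. The medians over the HIF list, the PERK-ATF4 list and all tested genes have the same order of vehicle samples, the last within 0.01 of 0. A list median is narrower than single genes by construction.

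Most tested genes of the HIF and PERK-ATF4 lists, which were written with earlier results of these data known, were called higher. Of 29 tested HIF targets, 27 were called higher with S1P (12.7% of all tested genes were) and 0 lower, with a median log2 fold change of 0.83 where all tested genes had 0.01. P4ha2, a collagen prolyl hydroxylase, rose by 2.55, Ndrg1, a stress-response gene, by 2.29 and Adm, the hormone adrenomedullin, by 1.94 on the log2 scale. Of 30 tested PERK-ATF4 targets, 21 were called higher and 0 lower, against the same 12.7% and 10.4% of all tested genes, with a median of 0.71. Nupr1, a stress-induced chromatin protein, rose by 2.49 and Atf3, a transcription factor of the stress response, by 1.65. Atf4 itself was not called, at 0.24, which is short of the fold-change threshold. Psat1 (0.03), Phgdh (-0.11) and Shmt2 (-0.02) were also among those not called. Vegfa and Ddit4 belong to both lists. Each of the 3 genes had a larger log2 fold change than every tested member of either list, a comparison that the choice of the 3 genes favours. Without S1P replicate 2 the counts were 28 HIF and 20 PERK-ATF4 targets called higher. At a log2 fold change of at least 1, they were 11 HIF and 9 PERK-ATF4 targets.

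Besides Muc2, 14 mucin genes were in the table, and 11 of them had too few reads to be tested, with at most 7 counts in any sample. The 3 tested ones were Muc1, a transmembrane mucin, Muc6, a gel-forming mucin of the stomach, and Ovgp1, the oviduct mucin. edgeR called 0 of them (DESeq2 also 0), where 12.7% of all tested genes were called higher and 10.4% lower, and 0 of 3 is no result at that share. An unadjusted p under 0.05 was found for 1, as for 40.5% of all tested genes. This was Muc1, with raw counts of 3, 7 and 11 with vehicle and 12, 11 and 17 with S1P and a log2 fold change of 1.08 (SE 0.47, adjusted p = 0.111, edgeR). Ovgp1 had a log2 fold change of -0.44 (SE 0.27, adjusted p = 0.253) and Muc6 of 0.02 (SE 0.27, adjusted p = 0.958, both edgeR).

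Per length, Ovgp1 led the mucins with vehicle (0.585 CPM per kilobase) and Muc2 with S1P. Muc2 made up 14.3%, 27.3% and 5.20% of the summed per-length level of the mucins in the vehicle samples and 66.2%, 66.7% and 45.3% in the S1P samples.

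The genes that serve mucus secretion in goblet cells mostly had too few reads to be tested. Of 24 such genes, 4 were tested, and 1 was called higher, beside 12.7% of all tested genes. This was Creb3l1, a membrane-bound transcription factor of the endoplasmic reticulum related to ATF6, with a log2 fold change of 1.09 (SE 0.31, adjusted p = 0.0223, edgeR), and its call was kept in 1 of 6 fits that leave out a sample (not without S1P replicate 2). The untested ones had at most 14 counts in any sample. Spdef, the transcription factor of goblet cell maturation, and Tff3, the trefoil peptide secreted with Muc2, had no read in any sample.

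Of 27 enzymes of mucin-type O-glycosylation, the sugar coat that mucins carry, 20 were tested, 3 were called higher and 2 lower, shares that stand beside 12.7% and 10.4% of all tested genes. B3gnt3, which extends core 1 chains, rose by 1.01 (adjusted p = 0.0173), Gcnt4, a core 2 branching enzyme, by 0.63 (adjusted p = 0.0294) and Galnt6, which adds the first sugar, by 0.32 (adjusted p = 0.00587, all edgeR). St6galnac4, a sialyltransferase, fell by 0.65 (adjusted p = 0.000368) and Galnt4, another initiating enzyme, fell by 0.44 (adjusted p = 0.0204, both edgeR). Only the call of St6galnac4 was kept in all 6 fits that leave out a sample. DESeq2 did not call Gcnt4, and Galnt6 was not called with total count alone or without a filter on low counts. Without vehicle replicate 3 or without S1P replicate 1, 0 of these enzymes were called higher, and without S1P replicate 2, 4 were called higher and 2 lower.

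Lrp8, the other reelin receptor, was not called. Lrp8 had a log2 fold change of 0.09 (SE 0.09, adjusted p = 0.479, edgeR). Sorl1, a sorting receptor of the family, had -0.29 (SE 0.07, adjusted p = 0.0119, edgeR), just short of the fold-change threshold. Of the 10 tested relatives, 1 was called higher and 0 lower, beside 12.7% and 10.4% of all tested genes, with a median log2 fold change of 0.07. The 1 call was Lrp1, a large endocytic receptor that binds many of the same ligands, at 0.90 (SE 0.26, adjusted p = 0.022, edgeR) on 20 to 71 reads per sample, and it was kept in 2 of 6 fits that leave out a sample. These counts move with single libraries, since 2 relatives were called higher without S1P replicate 2, 2 lower without S1P replicate 1, and 0 higher in the 4 fits without vehicle replicate 1, 2 or 3 or S1P replicate 1.

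Set against its relatives per length, Vldlr went from 8th to 4th of the 15 family members analysed. Its share of their summed level was 1.16%, 1.47% and 0.394% in the vehicle samples and 10.3%, 9.72% and 8.27% in the S1P samples. With S1P, Vldlr reached the level of Lrp8, with ratios of 1.36, 0.891 and 0.985 where the vehicle samples had 0.13, 0.17 and 0.047. Of the family members analysed, those above it with S1P were Lrp10 (14.7 CPM per kilobase), Lrp6 (6.94) and Sorl1 (6.33).

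**Figure D3:**
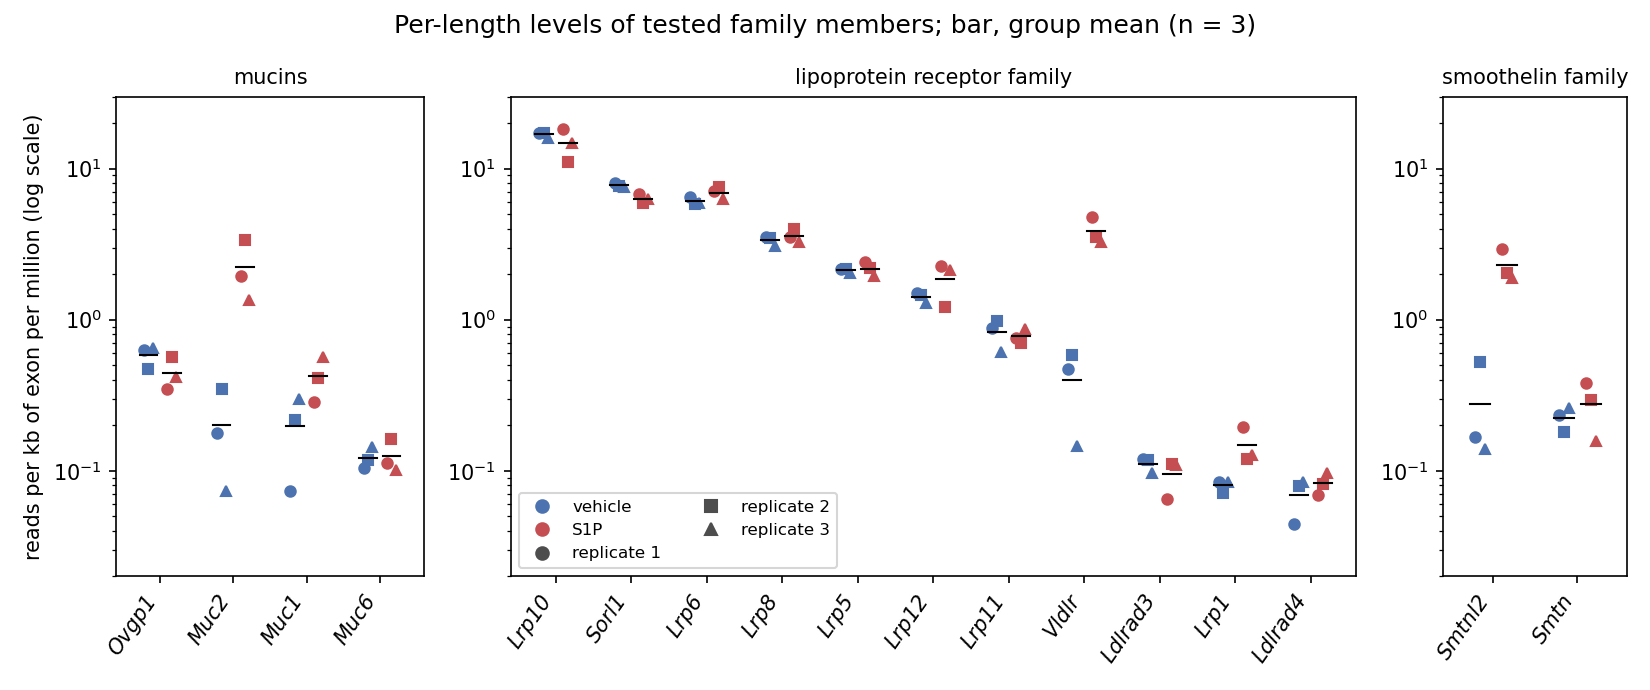
CPM per kilobase of exon (log axis) of the tested members of the mucin, lipoprotein receptor and smoothelin families, ordered by their vehicle mean, in vehicle (blue) and S1P (red) samples with bars at the group means. Muc2, Vldlr and Smtnl2 are the members whose groups lie far apart, and Lrp10, Lrp6 and Sorl1 stay above Vldlr in both groups.

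Of the 21 ligands, adaptors and turnover genes of Vldlr analysed, 14 were tested, 1 was called higher and 3 lower, beside 12.7% and 10.4% of all tested genes, with a median log2 fold change of 0.00053. Without S1P replicate 2, 2 were called higher and 2 lower, and without vehicle replicate 1 or 3, 0 higher and 2 lower. Mylip, the ubiquitin ligase IDOL that marks Vldlr for degradation, rose by 0.45 (adjusted p = 0.0145, edgeR). Plaur, the urokinase receptor, fell by 1.12 (adjusted p = 0.001), Rapgef1, an exchange factor downstream of the reelin adaptor, fell by 0.40 (adjusted p = 0.00242) and Snx17, a sorting nexin that returns family members to the surface, fell by 0.44 (adjusted p = 0.0312, all edgeR). The calls of Plaur and Rapgef1 were kept in all 6 fits that leave out a sample, that of Mylip in 4 and that of Snx17 in 1.

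Of the relatives of Smtnl2, 1 was tested and it was not called. Smtn, smoothelin itself, had raw counts of 18, 11 and 18 with vehicle and 30, 15 and 9 with S1P, a log2 fold change of 0.33 (SE 0.35) and an adjusted p of 0.511 in edgeR's test. The unadjusted p was not under 0.05 and DESeq2 did not call it. Smtnl1, the remaining relative, reached 1 count at most. Smtnl2 made up 40.4%, 74.5% and 34.9% of the per-length level of this family with vehicle and 88.6%, 87.3% and 92.2% with S1P.

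Of 16 smooth muscle contractile genes and their regulators, 4 were tested, 0 were called higher and 1 lower, beside 12.7% and 10.4% of all tested genes. The lower one was Srf, the serum response factor that drives this programme, which fell by 0.44 (SE 0.08, adjusted p = 0.00162, edgeR) and kept its call in all 6 fits that leave out a sample.

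CD8 T cell transcripts were abundant in both groups, and those of epithelium and smooth muscle were rare. The 10 CD8 T cell markers summed to 4042 to 4887 CPM with vehicle and 3975 to 4219 CPM with S1P. Gzmb, the cytotoxic protease granzyme B, made up the largest part of this sum and was not called (log2 fold change -0.10, adjusted p = 0.479, edgeR). The coreceptor genes Cd8a (-0.67, adjusted p = 0.000243) and Cd8b1 (-0.55, adjusted p = 0.00767) were called lower and Cd2 (0.33, adjusted p = 0.0131, all edgeR) higher. The 15 markers of intestinal and goblet epithelium summed to 10.7 to 11.7 CPM with vehicle and 12.2 to 13.3 CPM with S1P. Of these 15, 2 were tested, namely Epcam (log2 fold change -0.06, adjusted p = 0.746) and Lgals4 (0.76, adjusted p = 0.0186, both edgeR). Krt8, Krt19, Krt20, Tff3 and Spdef were at 0 in every sample, and 9 of the 15 never exceeded 3 counts. The 8 smooth muscle markers summed to 1.41 to 2.19 CPM with vehicle and 2.04 to 3.25 CPM with S1P. The 8 fibroblast markers summed to 0.293 to 0.45 CPM and 0.732 to 1.67 CPM, and 8 endothelial markers to 69.4 to 74.5 CPM and 80.5 to 85.4 CPM, nearly all of it from Pecam1, since the other endothelial markers reached 6 counts at most. The epithelial, fibroblast and endothelial sums were higher in every S1P sample than in every vehicle sample, while the smooth muscle sums overlapped. No fibroblast marker exceeded 8 counts in any sample. The part of these differences in the values of the 3 genes was not tested.

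Transcripts of other lymphocytes were present in both groups, although the samples are labelled as purified naive CD8+ T cells. Whole splenocytes are 1 of the starting materials in the published culture method, and their part in these transcripts was not tested. The 8 B cell markers, all of them tested, summed to 1031 to 1253 CPM with vehicle and 1114 to 1217 CPM with S1P, and 4 CD4 T cell markers to 229 to 272 CPM and 252 to 319 CPM. Of the CD4 T cell markers, Zbtb7b (0.37, adjusted p = 0.00886) and Cd40lg (0.50, adjusted p = 0.0134) were called higher, and Cd4 (0.10, adjusted p = 0.487, all edgeR) was not. Of the B cell markers, Ebf1 (0.60, adjusted p = 0.00235) was called higher and Ms4a1 (-0.39, adjusted p = 0.00889, both edgeR) lower. The part of these shifts in the values of the 3 genes was not tested. Which of the cells in the culture made Muc2, Vldlr and Smtnl2 was not tested. Markers of macrophages and dendritic cells (4.09 to 5.01 CPM and 3.85 to 5.97 CPM) and of NK cells (2.54 to 3.08 CPM and 1.88 to 4.39 CPM) were low in both.

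Next, the genes whose values followed each gene most closely over the 6 samples were sought, using the root mean square difference of log2 CPM after centring each gene on its vehicle mean. Vldlr and Muc2 were each among the 5 genes of most like profile of the other, at a difference of 0.46. Smtnl2 was 6th in likeness for both, at 0.61 from Muc2 and 0.49 from Vldlr, while for Smtnl2 itself Vldlr was 8th and Muc2 17th. Muc2, Vldlr and Smtnl2 were chosen by their difference between the treatments, which also enters this measure. Their likeness to each other thus follows in part from that choice, and likeness beyond it was not tested. Nearest to Muc2 was Cfap144, a cilia-associated gene, at 0.38, followed after Vldlr by Ifi207, Fzd7 and Wipi1. Nearest to Vldlr was Fzd7, a Wnt receptor, at 0.27, followed by Itga7 (a laminin-binding integrin chain), Muc2, Mboat2 (a phospholipid acyltransferase) and Cfap144. Nearest to Smtnl2 was Wipi1, an autophagy protein that binds phosphoinositides, at 0.22, followed by Itga7, Mboat2, Fzd7 and Aldoc, an aldolase.

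These genes differ in abundance. Fzd7 had a mean of 22.9 ± 13.2 normalised reads with vehicle and 184 ± 22.9 with S1P (SD, n = 3), Wipi1 had 9.37 ± 7.87 and 72.6 ± 5.75, and Aldoc had 117 ± 42.7 and 730 ± 114. They were selected on these 6 samples, so that the order of samples they share with the 3 genes follows from the selection. Which genes are named depends on the measure, since with a prior count of 0.5 in place of 2, 3, 3 and 4 of the 5 were shared for Muc2, Vldlr and Smtnl2, and with Pearson's coefficient 0, 1 and 0 were.

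**Figure D4:**
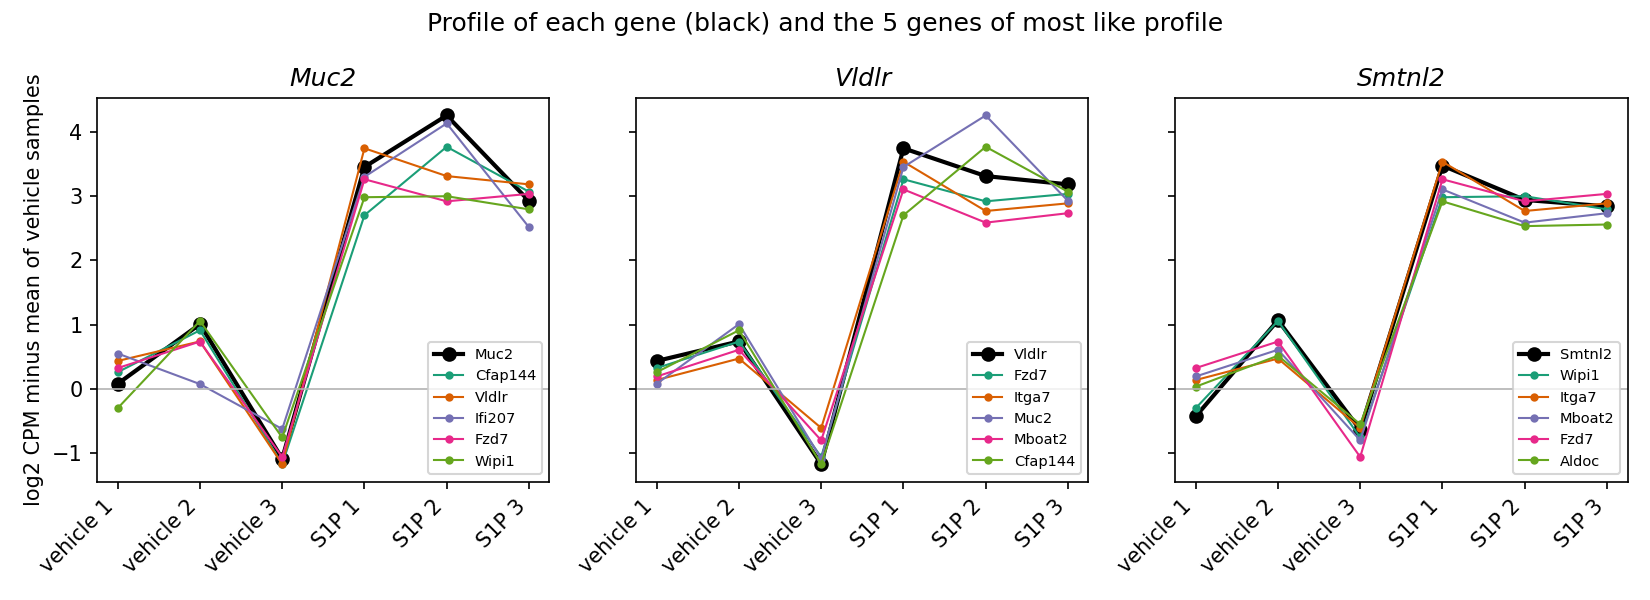
Log2 CPM minus the vehicle mean (y axis) in the 6 samples (x axis) for Muc2, Vldlr and Smtnl2 (black) and the 5 genes of most like profile of each (colours), where lines only join the values of a gene. The dip at vehicle replicate 3 recurs in all panels, and Muc2 departs from Vldlr mainly at S1P replicate 2.

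The tested neighbouring genes did not show changes of this size, a comparison that the choice of the 3 genes favours. Several neighbours had too few reads to be tested. Calls among the others stand beside 12.7% of all tested genes called higher and 10.4% called lower. Muc2 lies in a cluster of gel-forming mucin genes, and its neighbours Muc5ac and Muc5b, 34.3 and 84.4 kb away, had at most 2 and 3 counts in any sample. Muc6, 34.9 kb to the other side, had the log2 fold change of 0.02 given above, Ap2a2 (27.5 kb) had -0.07 (adjusted p = 0.526) and Tollip (120.1 kb) -0.03 (adjusted p = 0.798, both edgeR). Chid1, 156 kb away, was called lower at -0.40 (adjusted p = 0.0353, edgeR), a call kept in 2 of 6 fits that leave out a sample.

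Vldlr has few genes nearby. Pum3, the nearest tested one at 131 kb, had a log2 fold change of -0.19 (adjusted p = 0.211, edgeR). Smarca2, a chromatin remodelling ATPase 438 kb away, rose by 0.61 (adjusted p = 0.00117) and Rfx3, a transcription factor of ciliary genes 507 kb away, by 0.65 (adjusted p = 0.000415, both edgeR). Around Smtnl2, Xaf1, an interferon-induced gene 75.4 kb away, rose by 1.47 (adjusted p = 0.000154) and Mybbp1a, a nucleolar protein 29.5 kb away, fell by 0.47 (adjusted p = 0.000795, both edgeR). Spns2, the exporter that carries S1P out of cells, lies 39.9 kb from Smtnl2 and reached 9 counts at most, so that it was not tested.

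**Figure D5:**
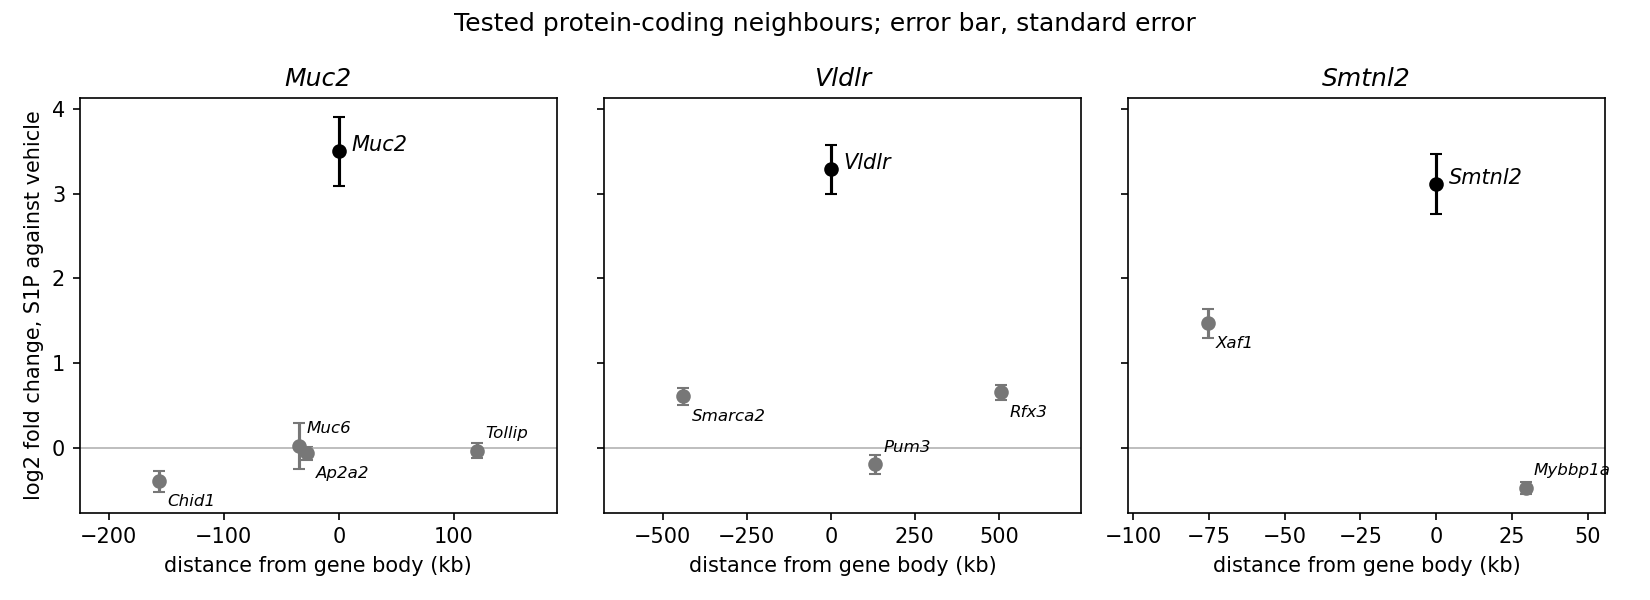
Log2 fold change of S1P against vehicle with its standard error (y axis) for Muc2, Vldlr and Smtnl2 (black) and their tested protein-coding neighbours (grey), by distance from the gene body in kb (x axis, lower coordinates to the left). The 3 genes, which were chosen by this contrast, stand above 3 on the log2 scale, and of the tested neighbours only Xaf1 exceeds 1.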

How the data were processed

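Strand-specific poly(A) libraries were sequenced from 6 samples (3 S1P, 3 vehicle). Per the labels, the submitters' processing notes name Trim Galore, STAR, featureCounts, DESeq2 and GRCm39. The deposited values are raw whole-number counts per gene, which the authors made with featureCounts. Annotation release, strand setting and treatment of multiply mapped reads are not given in the sources used here. Symbols, exons and positions came from GENCODE vM39 (56323 of 56941 identifiers matched).

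Counts were filtered with filterByExpr, scaled by TMM and tested with the quasi-likelihood test of edgeR 4.0.16 under R 4.3.3, with limma 3.58.1. The model held treatment alone, and p-values were adjusted by Benjamini-Hochberg over 13299 genes. Calls needed 0.05 or less after adjustment and 0.3 or more in log2 size. Log2 CPM used a prior count of 2. Level per length was CPM divided by exon length. On simulated data edgeR recovered 88 of 104 genes changed by 1 and 93 of 93 changed by 2 on the log2 scale, over 13097 genes. The simulation changed 197 of these genes, far fewer than were called in the data, and used the fitted dispersions. It therefore does not measure how reliable the calls in these data are. Totals of 12048880 to 17384084 leave genes with few counts imprecise.

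The 3 genes, the 9 pathway lists and the 9 marker lists were chosen with earlier results of these data known. Genes named are the 3 genes, called list members and close relatives, the 5 genes of most like profile, the genes next in rank, 3 protein-coding neighbours on each side and the markers. HIF and PERK-ATF4 examples were taken from the called members after their values were seen. Alternatives were DESeq2 1.42.0, limma-voom, other scalings and filters, a replicate block, a higher fold threshold and leaving out each sample. Results for 2 genes of these lists are not reported here, and the lists were counted without them.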

Additional observations from a re-analysis of the deposited data

How the results depend on the processing

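Under DESeq2, limma-voom, other scalings, other filters and the replicate block, the log2 fold change stayed between 3.46 and 3.63 for Muc2, 3.26 and 3.50 for Vldlr and 3.05 and 3.32 for Smtnl2. Smtnl2 has no value where at least 10 counts in every sample were required, since vehicle replicate 3 had 9. Leaving out each sample in turn gave 3.09 to 4.09 for Muc2 (lowest without S1P replicate 2, highest without vehicle replicate 2), 2.89 to 3.62 for Vldlr and 2.79 to 3.89 for Smtnl2 (both lowest without vehicle replicate 3 and highest without vehicle replicate 2). Genes called ranged from 2119 to 3228 over the same fits, with 1158 to 1736 higher and 961 to 1492 lower. At a log2 fold change of at least 1, 465 genes were called, 383 higher and 82 lower. Whether replicate numbers pair the samples is not given in the labels. Deviations of same-numbered samples correlated at 0.12, -0.006 and 0.05 across genes, and those of unlike-numbered samples at -0.10 to 0.05. With 3 samples a group these values cannot decide the question. With the replicate block the log2 fold changes were 3.52, 3.32 and 3.12, and 3120 genes were called. Counts of 9 to 83 reads limit the vehicle values of the 3 genes, and with 3 samples a group the high spread between vehicle samples is itself poorly known.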
